A study of Mus musculus with 9 samples.

Results

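The aquaporins described here are 6 genes, Aqp1, Aqp3, Aqp4, Aqp5, Aqp8 and Aqp11, taken by symbol from the 18094 genes of a deposited count table of mouse uterus. All 6 were present, and all 6 passed the low-count filter that left 15186 genes to test. The table held 5 further aquaporins, Aqp2, Aqp6, Aqp7, Aqp9 and Aqp12, which are given where they help to place the 6.

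RNA was sequenced from the uterus of 9 female mice at 13 weeks of age, 3 in each of 3 groups. Tamoxifen mice were given 1 mg/kg of tamoxifen by mouth on days 1 to 5 after birth, in a mixture of oil, lecithin and milk, and later the vehicle of primidone. Tamoxifen+primidone mice had the same neonatal tamoxifen and then primidone, injected into the peritoneum at 2 mg/kg per day for 3 weeks from week 10. Control mice had the solvent as newborns and the vehicle as adults. Tamoxifen binds the estrogen receptor and acts on it differently in different tissues, and neonatal dosing is used in mice to produce adenomyosis, the growth of endometrial tissue into the muscle of the uterus. Primidone is an anticonvulsant that also blocks the ion channel TRPM3. No group had primidone without tamoxifen, so an action of primidone by itself cannot be told apart from its action after tamoxifen. The sources used here do not give strain or estrous stage.

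Aquaporins are membrane proteins that form pores for water, and some of them, the aquaglyceroporins, also carry glycerol. Water follows salt, so in an epithelium these channels work beside the pumps and chloride channels that set up the osmotic gradient. In the uterus, the water content of the stroma and the fluid of the lumen vary with ovarian steroids, and several aquaporins of the rodent uterus are known to respond to estrogen and progesterone. Aqp1 is the classical water channel of red cells and of vascular endothelium. Aqp5 carries water across the apical membrane of secretory epithelia such as salivary and lacrimal gland. Aqp4 is the main water channel of brain astrocytes, where the dystrophin complex anchors it. Aqp8 passes water and also hydrogen peroxide and is known from colon, pancreas, liver and testis. Aqp11 is a divergent family member of intracellular membranes, and Aqp3 is an aquaglyceroporin of skin and of basolateral epithelial membranes.

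The promoters of Aqp5 and Aqp8 are shown because these were the 2 members whose libraries did not overlap between the tamoxifen+primidone and control groups, both on the lower side. Each is the 250 bases before the annotated start, 5′ to 3′ on the gene's strand, from RefSeq on GRCm38.p6, which is another build than the GRCm39 named for the counts. Capitals mark CACGTG, the E-box letters bound by clock transcription factors among others, and GGGCGG, the Sp1 GC box. Aqp5 lies at chr15:99590778-99591027 on the plus strand and Aqp8 at chr7:123462044-123462293 on the plus strand.
Aqp5: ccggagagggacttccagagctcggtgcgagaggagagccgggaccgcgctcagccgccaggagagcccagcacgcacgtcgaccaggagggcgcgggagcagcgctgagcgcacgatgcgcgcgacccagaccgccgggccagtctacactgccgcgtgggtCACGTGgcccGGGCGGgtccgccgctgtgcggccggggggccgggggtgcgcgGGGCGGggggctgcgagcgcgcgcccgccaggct
Aqp8: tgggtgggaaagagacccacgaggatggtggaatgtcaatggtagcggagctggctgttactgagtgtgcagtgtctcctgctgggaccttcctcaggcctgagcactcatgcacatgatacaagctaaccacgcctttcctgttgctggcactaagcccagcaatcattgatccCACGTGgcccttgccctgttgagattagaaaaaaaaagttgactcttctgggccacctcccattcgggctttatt
CACGTG stood 87 to 82 bases before the start of Aqp5 and 75 to 70 bases before that of Aqp8. The E-box letters were found on either strand in 6.02% of 32851 RefSeq promoters of the same length. GGGCGG, found in 32.7% of promoters, stood 77 to 72 and 34 to 29 bases before the start of Aqp5, and was found in the windows of Aqp1 and Aqp3 when both strands were searched. Among the other letters searched on both strands, TATAAA (12.4% of promoters) was in the window of Aqp3 and AGGTCA, the estrogen receptor half-site with its flanking base (14% of promoters), was in that of Aqp11. The progesterone and glucocorticoid receptor half-site TGTTCT (16.1% of promoters), the NFAT core TGGAAA (18.6%) and the full estrogen response element, GGTCA and TGACC separated by 3 bases (0.0639%), were in none of the 5 member windows searched. The full element and the AGGTCA half-site can overlap. These matches describe letters in a window and do not show binding.

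Library totals ran from 36393120 to 39958443 counts. Within a gene, levels are CPM, counts scaled to a common library size after TMM normalization, and levels of different genes are compared in the deposited FPKM, which is also divided by gene length. Differences between groups are log2 fold changes ± SE from edgeR's quasi-likelihood test, fitted over all 9 libraries, with p-values adjusted by the Benjamini-Hochberg method over the 15186 genes and a threshold of 0.05. The design does not say whether the mice of a group were littermates. The epithelial, stromal and muscle markers of uterus were all detected, with Epcam, an epithelial adhesion protein, at 302 to 517 CPM. In whole uterus, fewer cells of a type and less RNA per cell cannot be told apart.

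Aqp5 and Aqp1 made up nearly all aquaporin RNA of the uterus in every group. Together they held between 92.5% and 98.3% of the summed FPKM of the 11 aquaporins in each library. In control mice Aqp5 stood at 112 ± 13 FPKM (SD, n = 3) and Aqp1 at 74.6 ± 11.9 FPKM (SD, n = 3), and their ranges did not overlap. The next 4, Aqp8 at 1.32 ± 0.815, Aqp11 at 1.24 ± 0.369, Aqp4 at 0.791 ± 0.254 and Aqp3 at 0.418 ± 0.145 FPKM (SD, n = 3), each overlapped its neighbour in the order. Aqp9 followed at 0.216 ± 0.0529 FPKM (SD, n = 3), apart from Aqp3 above it.

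The order of the levels was not the same in the dosed groups. In tamoxifen mice Aqp5, at 80.6 ± 27.9 FPKM, and Aqp1, at 62.8 ± 14.7 FPKM (SD, n = 3), overlapped, and Aqp4 came next at 3.03 ± 2.3 FPKM (SD, n = 3), overlapping Aqp8 at 2.37 ± 0.41 FPKM (SD, n = 3). In tamoxifen+primidone mice Aqp1 was first by its mean, at 87.5 ± 22 FPKM, with Aqp5 at 69.4 ± 4.23 FPKM (SD, n = 3) and overlapping ranges. Aqp8 was there the lowest of the 6 members, at 0.179 ± 0.117 FPKM (SD, n = 3), apart from Aqp3 above it at 0.835 ± 0.233 FPKM (SD, n = 3). Divided by Aqp1, the FPKM of Aqp5 gave 1.22, 1.37 and 2.05 for the control mice, 1.42, 0.744 and 1.89 for those given tamoxifen, and 0.629, 0.865 and 0.976 where primidone had followed. Every control library had more Aqp5 than Aqp1 per length, and every tamoxifen+primidone library had less.

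**Figure D1:**
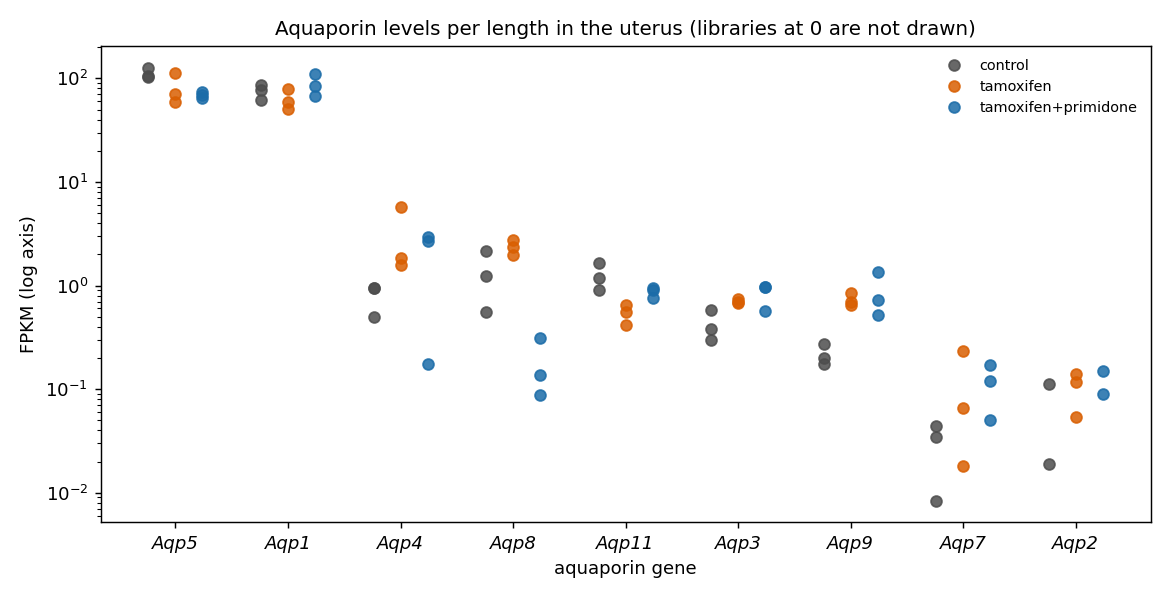
FPKM on a log axis of 9 aquaporins, each point a library, coloured by group, with 3 libraries per group and libraries at 0 left out. Aqp5 and Aqp1 lie far above the others in all 3 groups, and Aqp8 is the member whose 3 tamoxifen+primidone libraries lie apart from both other groups.

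Aqp8 was the member with the clearest difference between groups. Its level was 0.836, 3.24 and 1.89 CPM in the control libraries (32, 121 and 70 counts). In the tamoxifen libraries it was 2.98, 4.14 and 3.6 CPM (116, 150 and 141 counts). In the tamoxifen+primidone libraries it was 0.44, 0.127 and 0.201 CPM (17, 5 and 8 counts). All 3 tamoxifen+primidone libraries lay below all 6 others, while the control and tamoxifen ranges overlapped.

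Aqp8 fell in tamoxifen+primidone mice against control mice, from a mean of 1.99 ± 1.2 CPM to 0.256 ± 0.163 CPM (SD, n = 3), a ratio of means of 7.77. The edgeR log2 fold change was -2.94 ± 0.57 with an adjusted p of 0.0217. It was the only 1 of the 6 members called in that contrast, in which edgeR called 5.35% of all genes tested, and 3.21% in the lower direction. The call was lost without control replicate 2 (edgeR adjusted p 0.0573), control replicate 3 (0.0647), tamoxifen+primidone replicate 2 (0.0637) or tamoxifen+primidone replicate 3 (0.0572), and the log2 fold change stayed between -3.57 and -2.40 when single libraries were left out. The level rests on 30 counts in all over the 3 tamoxifen+primidone libraries.

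The difference of Aqp8 between tamoxifen+primidone and tamoxifen mice was larger, from 3.57 ± 0.58 to 0.256 ± 0.163 CPM (SD, n = 3), but missed the threshold. The ratio of means was 14 and the edgeR log2 fold change -3.79 ± 0.58, with an unadjusted p of 5.97e-05 and an adjusted p of 0.0567. In this contrast edgeR called 2 genes in all, or 0.0132% of those tested. Without tamoxifen+primidone replicate 1, the highest of its group, the edgeR adjusted p was 0.0216 at a log2 fold change of -4.42. Without the low-count filter it was 0.0322. DESeq2 gave an adjusted p of 1.88e-08 for Aqp8, in a test that called 3.78% of its genes. These 3 were the only ones of 17 alternative fits that called Aqp8 in this contrast. Tamoxifen mice against control mice gave 0.85 ± 0.50 with an edgeR adjusted p of 0.413. When both dosed groups were averaged against control, Aqp8 gave -1.05 ± 0.44 with an edgeR adjusted p of 0.185, on a log scale where its opposite values in the 2 dosed groups are averaged; the mean CPM was 1.91 in the 6 dosed libraries.

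**Figure D2:**
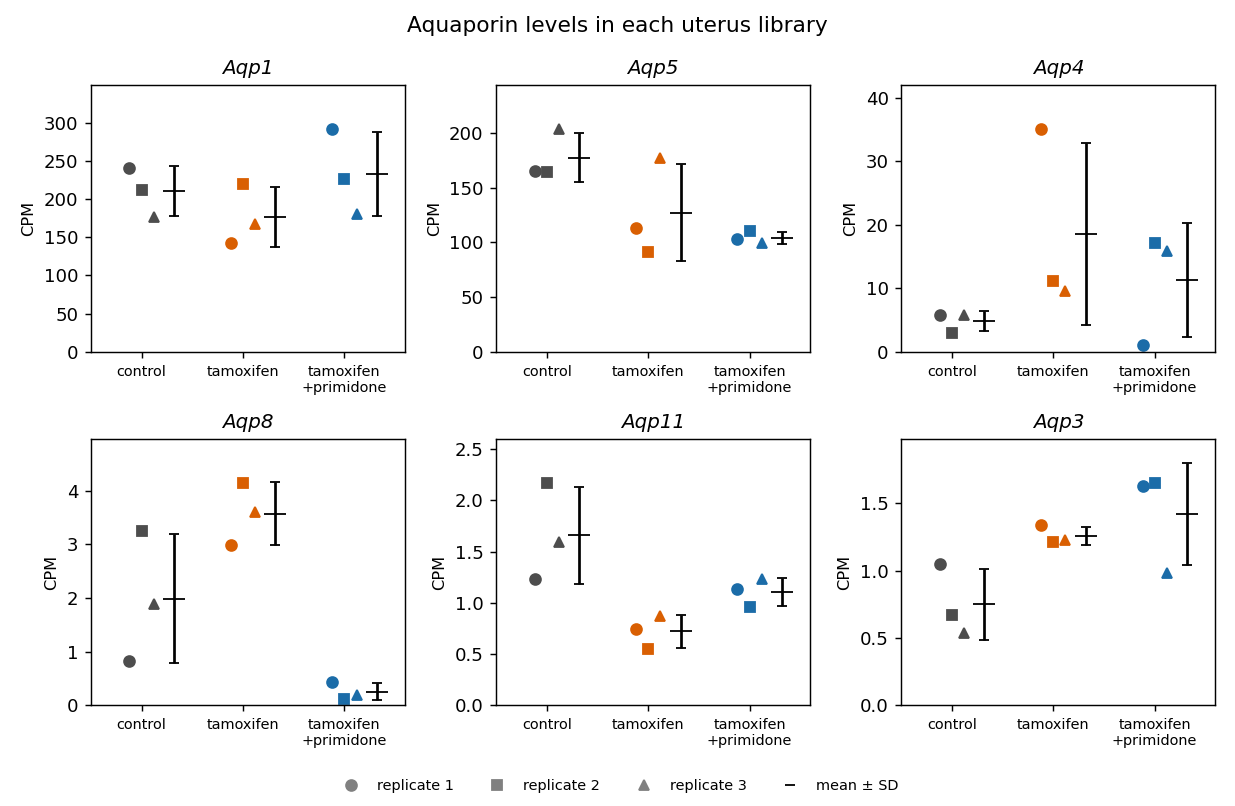
CPM of each of the 6 members (linear axes from 0), each point a library with its shape giving the replicate, and bars the mean ± SD of 3 libraries per group. Aqp8 in tamoxifen+primidone mice lies at 0.127 to 0.44 CPM, below every other library, and Aqp4 has the highest CV within both dosed groups.

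Markers of epithelium and of oviduct were set beside Aqp8, since a whole uterus can carry part of the oviduct. Of 12 markers of uterine luminal and gland epithelium, 11 had a negative log2 fold change in tamoxifen+primidone against tamoxifen mice, with a median of -0.38 against 0.02 over all genes; none passed the edgeR test, 10 had an unadjusted p under 0.05 and 7 were called by DESeq2. Over all genes in that contrast, 47.2% were negative, 2096 of 15186 had an unadjusted p under 0.05 and 3.78% were called by DESeq2. Their summed level was 5563 to 6201 CPM in tamoxifen libraries, 5310 to 5656 CPM in control libraries and 3971 to 4791 CPM in tamoxifen+primidone libraries. Against control, 2 of the 12 fell in tamoxifen+primidone mice. The claudin gene Cldn4 fell by 0.31 ± 0.08 on the log2 scale (edgeR adjusted p 0.0465) and the epithelial transcription factor gene Elf3 by 0.59 ± 0.09 (edgeR adjusted p 0.00923). In that contrast 10 of the 12 were negative, where 48.3% of all genes were negative and edgeR called 3.21% lower.

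Ovgp1, the oviduct-specific glycoprotein, was lowest in the tamoxifen+primidone libraries, as Aqp8 was. It stood at 1.18, 36.5 and 13.4 CPM in control, 267, 61.9 and 124 CPM in tamoxifen and 0.982, 0.684 and 0.906 CPM in tamoxifen+primidone libraries. Its tamoxifen libraries lay above all controls, where those of Aqp8 overlapped, and tamoxifen replicate 1 was the highest for Ovgp1 and the lowest of its group for Aqp8. Its log2 fold change in tamoxifen+primidone against tamoxifen mice was -7.46 ± 1.35 (edgeR adjusted p 0.117). Foxj1, the regulator of motile cilia, gave -2.54 ± 0.75 in that contrast (edgeR adjusted p 0.193) and lay at 0.0755 to 0.207 CPM in tamoxifen+primidone libraries. Dnah5 and Ccdc39, of the same list, went the other way. Dnah5 lay at 1.1 to 1.54 CPM in tamoxifen and 2.19 to 3.08 CPM in tamoxifen+primidone libraries. The means of Ccdc39 were 1.03 and 1.19 CPM. The whole list of 7 ciliated and oviduct markers summed to 159 to 194 CPM in control, 315 to 468 CPM in tamoxifen and 166 to 239 CPM in tamoxifen+primidone libraries, and 5 of the 7 were negative in tamoxifen+primidone against tamoxifen mice, with none called by edgeR, 3 at an unadjusted p under 0.05 and 2 called by DESeq2. Against control, tamoxifen+primidone mice had 2 calls: Pax2, a regulator of the Müllerian epithelium, fell by 0.39 ± 0.10 (edgeR adjusted p 0.046) and Tppp3, a tubulin-binding gene, rose by 0.83 ± 0.19 (edgeR adjusted p 0.0401). The part of these markers in the Aqp8 difference was not tested.

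**Figure D3:**
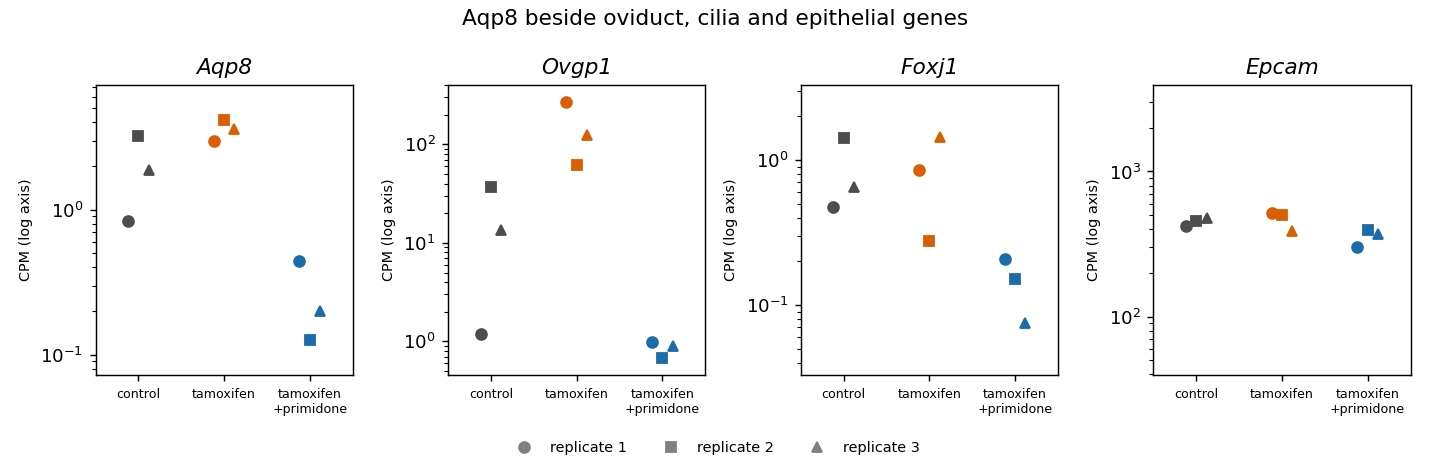
CPM on log axes of Aqp8, of the oviduct gene Ovgp1, of the cilia regulator Foxj1 and of the epithelial gene Epcam, each point a library with its shape giving the replicate, 3 libraries per group. All 3 tamoxifen+primidone libraries are the lowest for Aqp8, Ovgp1 and Foxj1. Epcam runs from 302 to 396 CPM in tamoxifen+primidone libraries, below all controls at 423 to 477 CPM.

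Genes known to respond to estrogen in the uterus are given beside Aqp8 as well. All 15 of the list had negative log2 fold changes in tamoxifen+primidone against tamoxifen mice, with a median of -0.65 against 0.02 over all genes. None was called by edgeR, 7 had an unadjusted p under 0.05 and 6 were called by DESeq2. Over all genes there, 47.2% were negative, 2096 of 15186 had an unadjusted p under 0.05 and DESeq2 called 3.78%. Against control, 4 of the 15 fell: Ltf, the secreted lactotransferrin, by 1.04 ± 0.18 on the log2 scale (edgeR adjusted p 0.0136), the mucin gene Muc1 by 0.68 ± 0.14 (0.0255), the arginine deiminase gene Padi1 by 0.88 ± 0.19 (0.0309) and the receptor target Greb1 by 1.07 ± 0.25 (0.0459). In that contrast 11 of the 15 were negative and 4 positive, where 48.3% of all genes were negative and edgeR called 3.21% lower. Sprr2f, a small proline-rich protein gene of the luminal epithelium, rose in tamoxifen against control by 1.14 ± 0.18 (edgeR adjusted p 0.0226). In the mean of both dosed groups against control, Sprr2f rose by 0.64 ± 0.15 (0.0443) and Calb1, a calcium-binding protein gene, by 1.98 ± 0.44 (0.0459). Greb1 fell there by 0.94 ± 0.21 (0.04) and the gap junction gene Gjb2 by 0.54 ± 0.13 (0.0484). The tamoxifen+primidone libraries of Sprr2f, at 1003 to 1693 CPM, overlapped the controls, at 1178 to 1326 CPM. Of 7 tested genes known to respond to progesterone, Hand2, a transcription factor of the stroma, rose in tamoxifen+primidone against control by 0.70 ± 0.10 (edgeR adjusted p 0.00777). In the mean of both dosed groups against control Hand2 rose by 0.42 ± 0.09 (edgeR adjusted p 0.0253). Its tamoxifen libraries, at 29.7 to 32.7 CPM, overlapped the controls, at 26.4 to 30.9 CPM. In tamoxifen+primidone against control 6 of the 7 were positive, against 51.7% of all genes, with a median of 1.05 against 0.01. DESeq2 called 3 of them there, against 12% of genes. Ihh, Il13ra2, Lrp2 and Acod1 of this list had group means of at most 2.53 CPM. Whether the estrous stage of the mice differed cannot be read from the labels.

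Aqp5, the most abundant aquaporin of the control uterus, was lower in tamoxifen+primidone mice without passing the test. Its level was 165, 164 and 203 CPM in control, 113, 91.4 and 177 CPM in tamoxifen and 103, 110 and 99.3 CPM in tamoxifen+primidone libraries. Every tamoxifen+primidone library lay below every control library, and tamoxifen replicate 3 lay among the controls. Against control, tamoxifen+primidone mice gave a log2 fold change of -0.77 ± 0.21 (edgeR adjusted p 0.0671), from 177 ± 22.3 to 104 ± 5.53 CPM (SD, n = 3). Tamoxifen mice gave -0.48 ± 0.21 against control (edgeR adjusted p 0.275), and both dosed groups together -0.62 ± 0.18 (edgeR adjusted p 0.0777).

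Few alternative fits took Aqp5 past the threshold. They were 1 of 17 in tamoxifen against control, 4 of 17 in tamoxifen+primidone against control and 2 of 16 in both dosed groups against control. Leaving out tamoxifen replicate 3 did so in all 3 of these contrasts. Without it, edgeR gave -0.79 with an adjusted p of 0.0435 for tamoxifen against control, an adjusted p of 0.0105 for tamoxifen+primidone against control and 0.00706 for both dosed groups against control. Without tamoxifen replicate 2, tamoxifen+primidone against control gave an edgeR adjusted p of 0.0306, and a fit of only those groups gave 0.0123. Tamoxifen libraries enter that contrast only through the fit shared by all 9 libraries. DESeq2 called Aqp5 in tamoxifen+primidone against control, with an adjusted p of 0.00446, and in both dosed groups against control, with 0.00893. Between tamoxifen+primidone and tamoxifen mice the log2 fold change was -0.29 ± 0.21 (edgeR adjusted p 0.595), and without tamoxifen replicate 3 it was 0.03. In tamoxifen+primidone against control, the contrast in which the Aqp5 libraries did not overlap, 2 of the 12 epithelial markers and 4 of the 15 estrogen-responsive genes fell, as given beside Aqp8. Over all genes, edgeR called 3.21% lower there. Foxa2, a transcription factor of the uterine glands, gave 0.68 ± 0.21 there (edgeR adjusted p 0.0902). The part of these genes in the Aqp5 values was not tested.

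No difference of Aqp1 between groups exceeded the spread within them. Its level was 241, 212 and 176 CPM in control, 142, 219 and 167 CPM in tamoxifen and 291, 226 and 181 CPM in tamoxifen+primidone libraries, and the ranges of all 3 groups overlapped. Its log2 fold change was -0.25 ± 0.20 in tamoxifen against control (edgeR adjusted p 0.561), 0.40 ± 0.21 in tamoxifen+primidone against tamoxifen (0.426) and 0.15 ± 0.20 in tamoxifen+primidone against control (0.709). None of 11 endothelial markers was called by edgeR or by DESeq2 in any contrast, while 1 had an unadjusted p under 0.05 in tamoxifen+primidone against control and 2 in both dosed groups against control. Those markers summed to 667 to 798 CPM in control, 584 to 713 CPM in tamoxifen and 604 to 759 CPM in tamoxifen+primidone libraries. Erythroid markers, which belong to the other classical site of Aqp1, summed to 67.5 to 223 CPM in control, 231 to 334 CPM in tamoxifen and 186 to 538 CPM in tamoxifen+primidone libraries, and the globin gene Hbb-bs rose in tamoxifen+primidone against control by 1.86 ± 0.41 (edgeR adjusted p 0.0427). Smooth muscle markers summed to 7354 to 11802, 6025 to 7312 and 5667 to 7036 CPM in the same order of groups. In tamoxifen+primidone against control 2 of the 8 fell, where edgeR called 3.21% of all genes lower. They were Actg2, an enteric smooth muscle actin, by 1.18 ± 0.22 (edgeR adjusted p 0.0209) and the myosin gene Myh11 by 0.69 ± 0.16 (0.0357). All 8 were negative there, against 48.3% of all genes, with a median of -0.68 against 0.01. Of the 8, 6 had an unadjusted p under 0.05 (3523 of 15186 genes) and DESeq2 called 6 (12% of genes).

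Aqp4 varied most among the members within each dosed group. It stood at 5.78, 3 and 5.8 CPM in control, 35, 11.1 and 9.58 CPM in tamoxifen and 1.01, 17.1 and 15.8 CPM in tamoxifen+primidone libraries. All 3 tamoxifen libraries lay above all controls, and the tamoxifen+primidone group held both the lowest library of all 9 and 2 that lay above every control. Tamoxifen against control gave a log2 fold change of 1.93 ± 0.94 (edgeR adjusted p 0.338), and tamoxifen+primidone against control 1.22 ± 0.93 (edgeR adjusted p 0.479). Tamoxifen+primidone against tamoxifen gave -0.71 ± 0.91 (edgeR adjusted p 0.791), and 0.14 without tamoxifen replicate 1. The within-group CV of its CPM was 33.2% for control mice, against 76.9% for tamoxifen mice and 79.1% for those with primidone too. In control mice the CV of Aqp8, at 60.6%, and of Aqp3, at 35%, were above that of Aqp4.

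Markers of other cells that carry Aqp4 were low. Among 8 markers of skeletal muscle, whose fast fibres carry Aqp4, the myosin genes Myh1 and Myh2 were at 0 in all control libraries and reached at most 0.193 CPM in any library, and the list summed to 63.4 to 78.1 CPM in control, 32.6 to 64.5 CPM in tamoxifen and 45.5 to 57.5 CPM in tamoxifen+primidone libraries. Glial and Schwann cell markers summed to 29.8 to 33.2, 23.5 to 32.6 and 20 to 24.4 CPM in the same order of groups, and the astrocyte gene Gfap lay at 0.455 to 1.36 CPM. Neither list had a gene called by edgeR in any contrast, while up to 1 gene of each had an unadjusted p under 0.05 in a contrast and DESeq2 called up to 1 of the glial list. Of the 10 genes of the dystrophin complex, Sntb1 rose in tamoxifen against control, from 3.89, 6.13 and 3.43 CPM to 14.1, 7.78 and 13.1 CPM, a log2 fold change of 1.38 ± 0.28 (edgeR adjusted p 0.042). It also rose in both dosed groups against control, by 1.13 ± 0.25 (edgeR adjusted p 0.0324), and edgeR called no other gene of the complex in any contrast. Over all genes, edgeR called 1.53% in tamoxifen against control and 4.87% in both dosed groups against control. DESeq2 called 2 genes of the complex in each contrast except tamoxifen+primidone against tamoxifen, where it called 0. Its share over all genes was 7.11% in tamoxifen against control and 3.78% in tamoxifen+primidone against tamoxifen. It was 12% in tamoxifen+primidone against control and 11.3% in both dosed groups against control.

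Aqp11 was lower in tamoxifen mice, without passing the edgeR test. It stood at 1.23, 2.17 and 1.59 CPM in control (47, 81 and 59 counts), 0.745, 0.552 and 0.869 CPM in tamoxifen (29, 20 and 34 counts) and 1.14, 0.963 and 1.23 CPM in tamoxifen+primidone libraries (44, 38 and 49 counts). Every tamoxifen library lay below every library of the other 2 groups. Tamoxifen against control gave a log2 fold change of -1.20 ± 0.37 with an unadjusted p of 0.00909 and an edgeR adjusted p of 0.134, and tamoxifen+primidone against tamoxifen gave 0.62 ± 0.37 (edgeR adjusted p 0.506). DESeq2 called Aqp11 in tamoxifen against control with an adjusted p of 0.0374.

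Aqp3, the aquaglyceroporin, was low in every group. It stood at 1.05, 0.669 and 0.54 CPM in control (40, 25 and 20 counts), 1.34, 1.21 and 1.23 CPM in tamoxifen (52, 44 and 48 counts) and 1.63, 1.65 and 0.981 CPM in tamoxifen+primidone libraries (63, 65 and 39 counts). The tamoxifen libraries lay above all controls, and the tamoxifen+primidone libraries overlapped both other groups. The log2 fold change was 0.74 ± 0.39 in tamoxifen against control (edgeR adjusted p 0.357), 0.91 ± 0.39 in tamoxifen+primidone against control (0.195) and 0.83 ± 0.35 in both dosed groups against control (0.191). Markers of stratified squamous epithelium, where Aqp3 is abundant, summed to 39.9 to 93.7 CPM in control, 66.8 to 179 CPM in tamoxifen and 71.7 to 126 CPM in tamoxifen+primidone libraries. Of that list Krt6b, a keratin gene, rose in tamoxifen against control, from 0.652 to 7.67 CPM, by 3.55 ± 0.60 (edgeR adjusted p 0.0266). In the mean of both dosed groups against control it rose by 2.54 ± 0.54 (edgeR adjusted p 0.032). Its tamoxifen+primidone libraries, at 0.698 to 2.92 CPM, overlapped the controls, at 0.216 to 1.1 CPM. All tamoxifen libraries lay above all controls for Krt6b, as for Aqp3. Krt6b was the only 1 of the 9 tested genes of the list that did not overlap there, against 26.1% of all genes. Of the 9, 7 were positive and 2 negative. The means of Krt14 and Krt15 were lower in tamoxifen mice, at 6 against 7.66 CPM and 4.28 against 5.6 CPM. The part of the list in the Aqp3 values was not tested.

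As a group, the 6 members did not move in a common direction. In tamoxifen against control, edgeR called 0 of 6, against 1.53% of all genes; 2 members had an unadjusted p under 0.05, against 2699 of 15186 genes, 3 were positive and 3 negative, and their median log2 fold change was 0.24 against 0.00 over all genes. For tamoxifen+primidone against tamoxifen, edgeR called 0 of 6, against 0.0132% of all genes, with 1 at an unadjusted p under 0.05 (2096 of 15186 genes) and a median of -0.06 against 0.02. Against control, tamoxifen+primidone mice had 1 of 6 that fell and 0 that rose, against 5.35% of all genes called, with 3 at an unadjusted p under 0.05 (3523 of 15186 genes) and a median of -0.22 against 0.01. In both dosed groups against control, edgeR called 0 of 6, against 4.87% of all genes, with 4 at an unadjusted p under 0.05 (3507 of 15186 genes) and a median of -0.34 against 0.00. The contrasts share libraries, so their values are not independent of each other.

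Counts of members whose libraries did not overlap between groups are read against the same share over all genes. In tamoxifen against control, 3 of 6 did not overlap, Aqp3 and Aqp4 higher and Aqp11 lower, against 26.1% of genes. Between tamoxifen+primidone and tamoxifen mice it was 2 of 6, Aqp11 higher and Aqp8 lower, against 16.6%. In tamoxifen+primidone against control it was 2 of 6, Aqp5 and Aqp8, both lower, against 29.1%, a share near the background. In both dosed groups against control it was 0 of 6, against 12.6%. DESeq2 called 1 member, Aqp11, in tamoxifen against control, where it called 7.11% of genes; it called Aqp5 and Aqp8 in tamoxifen+primidone against control, against 12% of genes, and Aqp5 in both dosed groups against control, against 11.3%.

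**Figure D4:**
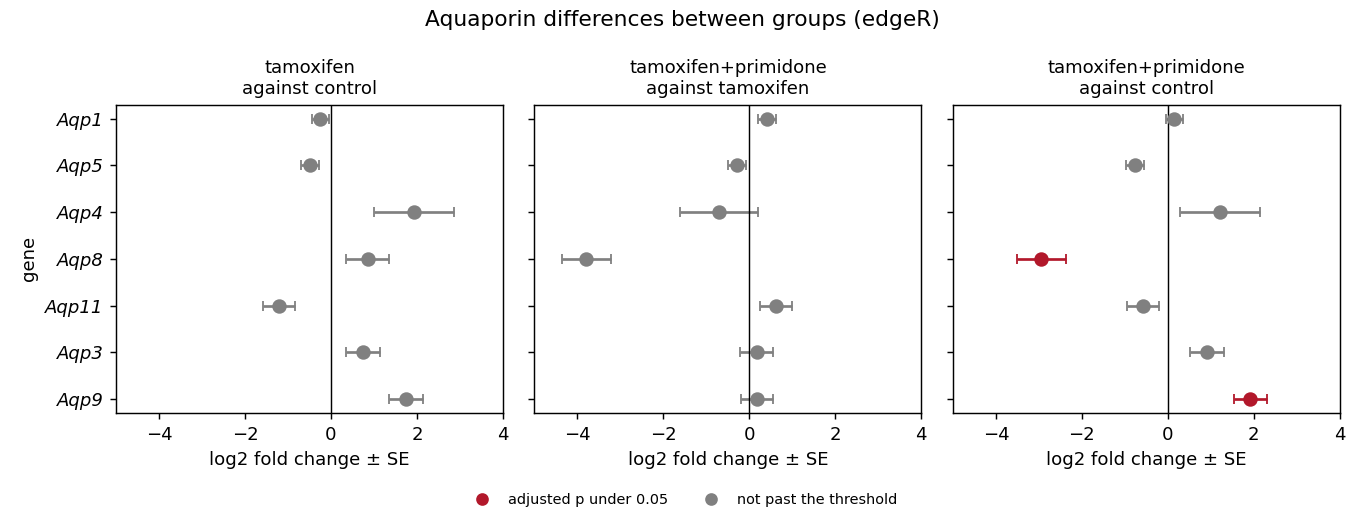
Log2 fold changes ± SE from edgeR (horizontal axis) of the 6 members and of Aqp9 in 3 contrasts, with 3 libraries per group; red marks an adjusted p under 0.05. The called values are Aqp8 at -2.94 and Aqp9 at 1.92, both in tamoxifen+primidone against control, and the larger Aqp8 value of -3.79 against tamoxifen is not called.

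Of the further aquaporins, Aqp9 was called. Aqp9, an aquaglyceroporin of liver and of white blood cells, stood at 1.02, 0.723 and 0.648 CPM in control, 2.57, 2.34 and 3.09 CPM in tamoxifen and 2.51, 4.74 and 1.84 CPM in tamoxifen+primidone libraries. Every dosed library of Aqp9 lay above every control, where 12.6% of all genes did not overlap in either direction. Aqp9 rose in tamoxifen+primidone against control by 1.92 ± 0.39 (edgeR adjusted p 0.025) and in both dosed groups against control by 1.83 ± 0.36 (0.022), and tamoxifen against control gave 1.74 ± 0.39 (0.0579). Of 8 liver markers, 6 rose in tamoxifen+primidone against control, where edgeR called 5.35% of all genes. They were Alb, serum albumin, by 1.60 ± 0.19 (edgeR adjusted p 0.00429), the apolipoprotein genes Apoa1 and Apoa2, Ttr, Fgb and Ahsg. The list summed to 62.2 to 86.4 CPM in control, 104 to 203 CPM in tamoxifen and 204 to 249 CPM in tamoxifen+primidone libraries. A list of neutrophil markers, added after the values had been seen, summed to 16 to 44, 60.5 to 70.4 and 32.1 to 78.8 CPM in the same order, with none called by edgeR in any contrast and 3, 0, 1 and 2 genes at an unadjusted p under 0.05 in the 4 contrasts and 2, 0, 0 and 2 called by DESeq2. The part of either list in the Aqp9 difference was not tested.

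Aqp7, the glycerol channel of fat cells, ran from 0.0261 to 0.716 CPM and gave 1.86 ± 0.98 in tamoxifen+primidone against control (edgeR adjusted p 0.284). The adipocyte markers beside it summed to 25.8 to 32.6 CPM in control, 30.9 to 240 CPM in tamoxifen and 62.4 to 294 CPM in tamoxifen+primidone libraries. Aqp2, the vasopressin-regulated channel of the kidney, had 7, 17 and 13 counts in all in the 3 groups, and Aqp6 and Aqp12 had 1 count each, all of it in the control group. These 3 genes did not pass the low-count filter. In the RefSeq annotation, Aqp5 lies between Aqp2 and Aqp6, and Aqp7 is a coding gene beside Aqp3. In control mice the mean FPKM of Aqp5 was 112, beside 0.0433 for Aqp2 and 0.0016 for Aqp6, and that of Aqp3 was 0.418 beside 0.0289 for Aqp7.

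The genes of salt and chloride transport, which set up the gradient that water follows, were described from a list of 26, of which 22 were tested. In tamoxifen+primidone against control, 3 fell and 2 rose, where 5.35% of all genes were called. Slc12a2, the sodium-potassium-chloride cotransporter that loads epithelial cells with chloride, stood at 181, 176 and 213 CPM in control, 162, 163 and 168 CPM in tamoxifen and 112, 117 and 123 CPM in tamoxifen+primidone libraries, and fell by 0.70 ± 0.09 on the log2 scale (edgeR adjusted p 0.00429). Cftr, the apical chloride channel, stood at 64.8, 80.4 and 78.6 CPM in control and 51.5, 46.8 and 62.3 CPM in tamoxifen+primidone libraries, and fell by 0.48 ± 0.12 (edgeR adjusted p 0.0464). All tamoxifen+primidone libraries lay below all controls for these 2 genes. Over the 22 tested genes of the list, 7 did not overlap on the lower side and 3 on the higher side, against 29.1% of all genes in either direction.

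Fxyd4, a regulator of the sodium pump, fell by 0.56 ± 0.14 (edgeR adjusted p 0.0437) in the same contrast, while Ano1, a calcium-activated chloride channel, rose by 0.89 ± 0.19 (0.0309) and the kinase gene Wnk1 rose by 0.35 ± 0.07 (0.0218). In both dosed groups against control, Slc12a2 fell by 0.46 ± 0.07 (edgeR adjusted p 0.013), Clca1, a secreted regulator of chloride channels, fell by 0.82 ± 0.20 (0.0493) and Wnk1 rose by 0.34 ± 0.06 (0.017). Over the tested list, 14 of 22 were negative in tamoxifen+primidone against control, where 48.3% of all genes were, with a median of -0.12 against 0.01 over all genes. In tamoxifen against control none of the 22 was called by edgeR. There 6 had an unadjusted p under 0.05 (2699 of 15186 genes) and DESeq2 called 2 (7.11% of genes). The smallest p belonged to Wnk1, at 0.32 ± 0.07 (edgeR adjusted p 0.0516), and Clca1, at -0.84 ± 0.24 (0.113). Between tamoxifen+primidone and tamoxifen mice none was called by edgeR either. There 8 had an unadjusted p under 0.05 (2096 of 15186 genes) and DESeq2 called 5 (3.78% of genes). The list was led there by Slc12a2 at -0.48 ± 0.09 (edgeR adjusted p 0.0803) and Fxyd4 at -0.66 ± 0.14 (0.108).

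Few genes of the other lists on water, glycerol and hormones passed the test. None of the 11 genes of the response to tonicity was called by edgeR in any contrast or by DESeq2, with 2, 0, 2 and 2 at an unadjusted p under 0.05 in the 4 contrasts. The smallest p belonged to the kinase gene Oxsr1, at 0.18 ± 0.07 (edgeR adjusted p 0.213), in tamoxifen against control, and to Hspa4l, a heat shock protein gene, at 0.57 ± 0.22 (0.153), in tamoxifen+primidone against control. Slc5a3, the inositol cotransporter of cells under osmotic load, gave -0.68 ± 0.26 in tamoxifen against control (edgeR adjusted p 0.22). Among 9 genes of glycerol handling, Pnpla2, the first lipase of fat breakdown, fell in tamoxifen+primidone against control by 0.42 ± 0.10 (edgeR adjusted p 0.0384). No other was called by edgeR in any contrast. In the 4 contrasts, 5, 2, 2 and 3 of the 9 had an unadjusted p under 0.05, and DESeq2 called 2, 2, 1 and 1. Over all genes 2699, 2096, 3523 and 3507 of 15186 had an unadjusted p under 0.05, and DESeq2 called 7.11%, 3.78%, 12% and 11.3%. All 9 glycerol genes were negative in tamoxifen+primidone against tamoxifen, where 47.2% of all genes were. Gpd1, glycerol phosphate dehydrogenase, gave 0.89 ± 0.22 in tamoxifen against control (edgeR adjusted p 0.0873). None of 7 steroid receptor genes was called by edgeR, with 3, 0, 0 and 3 at an unadjusted p under 0.05 and 2, 0, 0 and 1 called by DESeq2. Esr1, estrogen receptor alpha, gave -0.28 ± 0.09 in tamoxifen against control (edgeR adjusted p 0.13) and 0.18 ± 0.09 in tamoxifen+primidone against tamoxifen (0.379).

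The genes whose levels followed each member most closely were ranked by Pearson's r of log2 CPM over the 9 libraries, among 11703 genes with a mean of at least 5 CPM. With 9 libraries in 3 groups that share depth and processing, these values are a description, and the 4 highest of so many genes are high in any case. Aqp8 was most like F11r, a tight junction adhesion protein (r = 0.960), then Rabgef1 (0.931), Erlin2 (0.930) and Atp6v0a1, a subunit of the vacuolar proton pump (0.924). F11r ran over a much narrower range, from 137 to 185 CPM. Aqp5 was most like Vdac2, a mitochondrial anion channel (r = 0.938), then Coq10b (0.927), Enpp3, an ectonucleotidase (0.921), and Btbd3 (0.913), of which Enpp3 fell in tamoxifen+primidone against control by 0.53 ± 0.12 (edgeR adjusted p 0.0312).

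Aqp1 was most like Snx29 (r = 0.961), Flt4, the growth factor receptor of lymphatic endothelium (0.936), Plscr3 (0.930) and the calcium channel gene Orai3 (0.929). Aqp4 was most like Efhd2 (r = 0.963), Ttc7 (0.944), Cp, the copper protein ceruloplasmin (0.941), and Jpt1 (0.934). For Cp the highest library was tamoxifen replicate 1, at 703 CPM, and the lowest was tamoxifen+primidone replicate 1, at 143 CPM, the same libraries as for Aqp4. Aqp3 was most like the matrix protease gene Mmp2 (r = 0.965), Alas2, the heme synthesis enzyme of red cells (0.953), the amino acid carrier Slc7a8 (0.953) and Arhgap4 (0.947). Aqp11 was most like Usp2, a deubiquitinase (r = 0.943), then C2cd5 (0.939), Trip6 (0.929) and Ppa2 (0.902), and Usp2 fell in tamoxifen against control by 1.14 ± 0.21 (edgeR adjusted p 0.0317).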

How the data were processed

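Per the submitters' processing notes, the tools were DESeq2, HTSeq, HISAT2 and R 3.2.0, on GRCm39; the sources used here do not give the annotation or strand setting, so reads of overlapping antisense genes cannot be told apart. The deposited tables hold the authors' unnormalized counts, as whole numbers for each symbol, and the authors' FPKM. Each library's group and replicate number came from its label, and all 9 were used. Replicates of a group differed beyond counting noise (chi-square per degree of freedom 19.57 to 78.47).

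Counts were tested in R 4.3.3 with edgeR 4.0.16 (quasi-likelihood test, TMM, filterByExpr by group, robust fit, two-sided). The SE was taken from the log2 fold change and the F statistic (its size over the root of F). CPM and the promoter search were computed here. Alternatives were DESeq2 1.42.0 and its size factors, no filter, limma 3.58.1 on log2(FPKM + 1) or log2(FPKM + 0.1) with at least 0.5 FPKM in 3 libraries or with no filter, a replicate block, fits of only the compared groups, and leaving out each library. The fitting script was tested on simulated data.

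The members and gene lists were chosen with earlier results of these data known; the neutrophil list was added after the values had been seen. Named genes are all aquaporins of the table, the 4 genes most correlated with each member, the genes of the pathway and hormone lists that passed the test and, where none passed, some of the 2 with the smallest p; of the cell type markers, only genes set beside a member are named. The design gives 3 mice per group but not their litters, so p-values measure only the spread between these samples. RefSeq promoters matched 5 of the 6 members.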

Additional observations from a re-analysis of the deposited data

How the results depend on the processing

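Over 402 alternatives for the 6 members in the 4 contrasts, 380 kept their direction and their side of the threshold, 5 lost a call, 11 gained a call and 6 changed sign, all 6 in values that were not called. The cause of these changes was not tested.

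In tamoxifen against control, edgeR called 0 members and DESeq2 1 (0 to 1 when single libraries were left out); all genes called numbered 233, and 1112 with DESeq2, 144 with limma on FPKM without a filter and 546 with only the compared groups (22 to 439 without single libraries). In tamoxifen+primidone against tamoxifen, 0 members were called, and 1 without the low-count filter and with DESeq2 (0 to 1 without single libraries); all genes called numbered 2, and 9 with DESeq2 size factors in edgeR, 21 without the filter, 578 with DESeq2, 1 with limma on log2(FPKM + 1), 1 on log2(FPKM + 0.1) and 0 with limma without a filter (0 to 85 without single libraries). In tamoxifen+primidone against control, 1 member was called, and 2 with DESeq2, 2 with only the compared groups and 0 with limma without a filter (0 to 2 without single libraries), where Aqp8 had an adjusted p of 0.0691; all genes called numbered 812, and 1882 with DESeq2 (122 to 800 without single libraries). In both dosed groups against control, 0 members were called, and 1 with DESeq2 (0 to 1 without single libraries); all genes called numbered 739, and 1812 with DESeq2 and 481 with limma without a filter (112 to 946 without single libraries).

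Calls in tamoxifen+primidone against control were 325 higher and 487 lower with edgeR, and 674 higher and 337 lower with limma on log2(FPKM + 1), which is scaled by library totals; in both dosed groups against control they were 277 and 462, and 368 and 319. Without single libraries, the log2 fold change of Aqp1 in both dosed groups against control ran from -0.17 to 0.06 and that of Aqp1 in tamoxifen+primidone against control from -0.04 to 0.31. In tamoxifen+primidone against tamoxifen, that of Aqp4 ran from -1.15 to 0.14 and that of Aqp5 from -0.48 to 0.03.

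Deviations of libraries with the same replicate number were weakly correlated (r from -0.13 to 0.18), while 5 of 9 libraries correlated best with their own number. The numbers are not read as pairs, but these values cannot exclude a pairing. With the replicate block, edgeR called more genes in every contrast. It called 317 in tamoxifen against control, 53 in tamoxifen+primidone against tamoxifen, 984 in tamoxifen+primidone against control and 899 in both dosed groups against control. The block changed no call of a member. Aqp8, with 5 to 17 counts per library after primidone, and Aqp3 and Aqp11, with 20 to 81, are the members whose precision depth limits.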
